A study of Mus musculus with 14 samples.

Results

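AGO2 binds small RNAs and carries them to partly complementary sites in other RNAs, which are then silenced. In PAR-CLIP, cells take up 4-thiouridine before crosslinking, and a crosslinked uridine is read as C after sequencing, so a T-to-C conversion marks RNA that was in contact with the precipitated protein. Sites of AGO2 are known mostly from 3′ UTRs and coding sequence. Introns are spliced out in the nucleus, and AGO2 is found mainly in the cytoplasm. Some introns also hold miRNA hairpins, and a short intron that is itself a miRNA precursor is called a mirtron.

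The regions described here are the AGO2 binding groups annotated to introns that carried at least 1 conversion event. A group is a stretch of overlapping reads on 1 strand. In all, 6910 of the 151909 deposited groups met this rule, 3576 of 85458 in the KO library and 3334 of 66451 in the WT library. They held 214107 reads in KO and 145565 reads in WT. With a floor of 2 conversion events, 3493 groups remained in KO and 3272 in WT.

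The cells were bone marrow derived macrophages of C57BL/6 mice, grown from femur and tibia marrow with 20% of L929 cell medium. KO cells carried ELAVL1f/f with LysM-Cre, and WT cells carried ELAVL1f/f without Cre, so the floxed allele was present in every sample. LysM-Cre sits in Lyz2 and acts in myeloid cells. The protocol gives 6 days of culture and the design text 7. Each genotype had 1 PAR-CLIP library, made with an antibody to mouse Ago2, and 4 mRNA libraries. Small RNA was sequenced from KO 3, KO 4, WT 1 and WT 2. With 1 PAR-CLIP library per genotype no test between genotypes was possible, and intervals of shares are exact Clopper-Pearson 95% intervals that cover counting error only.

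Elavl1 mRNA, the target of the deletion, stood at 13.6, 11.5, 11.9 and 13.5 RPKM in KO and 12, 10.9, 11.5 and 11.9 RPKM in WT (read counts scaled to gene length and library depth). It was not lower in the libraries labelled KO, and the deletion may not be visible at the level of whole-gene RPKM. All 11 macrophage markers reached a mean of 1 RPKM in both genotypes, with a summed level of 4697 to 7864 RPKM in KO and 9023 to 13982 in WT. That list holds Lyz2, which carries the Cre and measured 2463 to 4299 RPKM in KO and 6773 to 10666 in WT. The summed level was 10.2 to 27.5 RPKM in KO and 4.87 to 22.5 in WT for neutrophil markers, and 17.7 to 33.5 in KO and 18.7 to 35.1 in WT for B cell markers. Fibroblast markers summed to at most 7.74 RPKM in KO and 5.32 in WT, T cell markers to at most 0.176 in KO and 0.12 in WT, neuron markers to at most 7.67 in KO and 8.51 in WT, and erythroid markers to at most 0.514 in KO and 0.503 in WT.

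Of the shared sites, 8 are printed first because they show what a converted intron group with a miRNA match looks like. They are among those with the most reads of the 121 overlapping KO and WT groups of 21 or more bases that held a 7mer match in both libraries and lay in a gene with mean RPKM of 1 or more. Sequences are the KO group, 5′ to 3′ on the strand of the transcript, and capitals mark the site, which pairs with bases 2 to 8 of the miRNA and, in the 8-letter sites, ends in an A opposite its first base.
Nt5c, miR-24: ccttacttatcttgcattCTGAGCCtag
Pgm2l1, miR-27b: catcctctaccttctgtACTGTGAAatg
Wdr70, miR-21a: tattactatctatATAAGCTActattattc
Tmem175, miR-29a: tcttatcccactgtTGGTGCTctag
Slc8a1, miR-24: acacttctCTGAGCCtttctg
Pik3ap1, miR-93 and miR-24: ttataaatctGCACTTTCTGAGCCctg
Hbs1l, let-7c: ttttctactcttCTACCTCtag
Fabp5, miR-27b: aactccatACTGTGAAtaaacaaaccac

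The miRNAs they match are printed below from RefSeq (GRCm38.p6), with the seed (bases 2 to 8) in capitals.
miR-24-3p: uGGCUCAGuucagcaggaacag
miR-27b-3p: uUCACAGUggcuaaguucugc
miR-21a-5p: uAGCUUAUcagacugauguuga
miR-29a-3p: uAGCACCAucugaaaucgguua
miR-93-5p: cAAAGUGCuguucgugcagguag
let-7c-5p: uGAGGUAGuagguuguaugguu

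In Nt5c, Pgm2l1, Tmem175, Pik3ap1 and Hbs1l the match lay close to the 3′ end of the group, and in Fabp5 it lay nearer the 5′ end. The group in Nt5c, which encodes a cytosolic nucleotidase, lay at chr11:115352323-115352350 (mm9, minus strand) and held 1395 reads with 1307 conversion events in KO and 1860 reads with 1605 events in WT. The group in Pgm2l1, a sugar phosphomutase gene, lay at chr7:107424907-107424934 on the plus strand and held 825 reads with 797 events in KO and 1046 reads with 970 events in WT. In Fabp5, a fatty acid binding protein gene at 280 RPKM in KO and 258 RPKM in WT, the group at chr3:10014201-10014228 held 83 reads in KO and 118 in WT, and the number of conversion events equalled the number of reads in both. Pik3ap1, an adaptor of phosphoinositide 3-kinase, had adjoining matches to 2 families in 1 group (chr19:41380461-41380487, minus strand), with 93 reads in KO and 107 in WT. The group in Wdr70 (chr15:8041734-8041763, minus strand) held 139 reads in KO and 195 in WT, and that in Tmem175, a lysosomal ion channel gene (chr5:109073972-109073996, plus strand), 125 in KO and 202 in WT. The group in Slc8a1, a sodium calcium exchanger gene (chr17:81786152-81786172, minus strand), held 165 reads in KO and 119 in WT, and that in Hbs1l, a translation factor gene (chr10:21031829-21031850, plus strand), 87 in KO and 277 in WT.

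Converted groups were a minority of the intron groups. In KO, 3576 of 13501 intron groups were converted (26.5%, interval 25.7 to 27.2), and in WT 3334 of 8396 (39.7%, 38.7 to 40.8). The converted share was 81.6% in KO and 86.9% in WT among 3′ UTR groups, 68.8% in KO and 77.6% in WT among coding groups, and 20.9% in KO and 31.6% in WT among intergenic groups. The lower share in KO came with more unconverted groups, 9925 in KO against 5062 in WT, a ratio of 1.96 (1.90 to 2.03, a 95% interval for Poisson counts). The ratio of converted intron groups was 1.07 (1.02 to 1.12), that of converted 3′ UTR groups was 0.740 and that of converted coding groups 0.797. The ratio for introns turned with length: among groups of 21 or more bases KO had 1612 converted intron groups and WT 2089, a ratio of 0.772. Without a second PAR-CLIP library, genotype and library cannot be told apart.

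Converted intron groups were longer than unconverted ones and shorter than converted 3′ UTR groups. Their median length was 20 bases in KO and 22 in WT, against 17 in both libraries for unconverted intron groups and 25 in both for converted 3′ UTR groups. Groups of 18 or fewer bases made up 27.7% of the converted intron groups in KO and 11.8% in WT. Of the unconverted intron groups 85.9% in KO and 70.5% in WT were that short, and of the converted 3′ UTR groups 1.65% in KO and 0.604% in WT. Converted intergenic groups were alike in length, with a median of 19 bases in KO and 20 in WT and 37.6% of 18 or fewer bases in KO and 19.1% in WT.

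**Figure D1:**
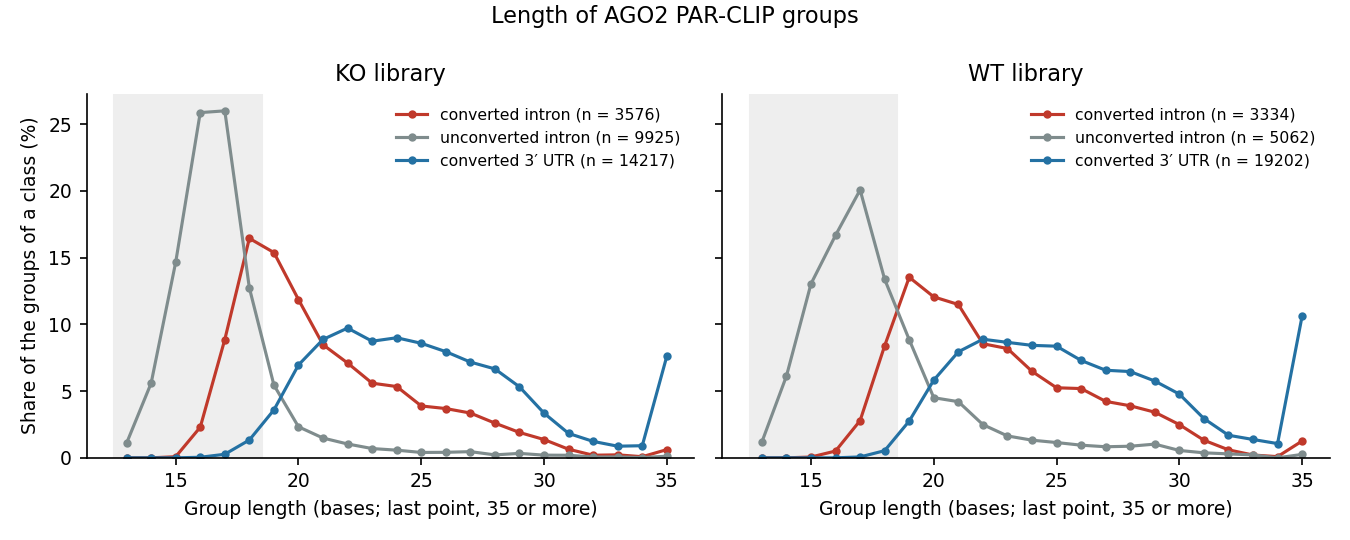
Share of groups (%) at each length in bases for converted intron, unconverted intron and converted 3′ UTR groups, in the KO library (left) and the WT library (right), with lengths of 18 or fewer shaded and 35 or more pooled in the last point. Unconverted intron groups peak below 18 bases, converted intron groups lie between them and the 3′ UTR groups, and 27.7% of the converted intron groups in KO and 11.8% in WT fall in the shaded range.

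The number of conversion events equalled the number of reads in most converted intron groups, 3046 of them in KO (85.2%) and 2834 in WT (85.0%). The share was 80.5% in KO and 78.3% in WT for converted 3′ UTR groups and 84.1% in KO and 82.7% in WT for converted coding groups. For converted intergenic groups it was 81.0% in KO and 76.8% in WT. The median was 1 event per read in both libraries, in converted intron groups as in those classes. Events are used by the rule, so these values are a description. A single converted position accounted for the events in 96.8% of the converted intron groups in KO and 95.8% in WT. It did so in 81.4% in KO and 77.3% in WT of the converted 3′ UTR groups. For converted intergenic groups this was 95.3% in KO and 92.7% in WT. Summed over all converted intron groups there were 0.513 events per read in KO and 0.603 in WT, below the median group. Converted 3′ UTR groups had 0.673 in KO and 0.812 in WT. Converted intron groups of 5 to 9 reads had as many events as reads in 93.4% of cases in KO and 91.6% in WT. In groups of 50 or more reads this share was 41.1% in KO (370 groups) and 35.8% in WT (254 groups). Only 94 groups in KO and 71 in WT had fewer than 0.1 events per read.

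Reads were concentrated in few groups. The 10 largest groups held 38.1% of all reads in converted intron groups in KO and 35.4% in WT, while the median group held 16 reads in KO and 13 in WT. A group in Rgs7, a regulator of G protein signalling known from neurons, held 25843 reads in KO and 8219 in WT (chr1:177149609-177149627 in KO, minus strand). It carried 28 conversion events in KO and 20 in WT. A group of 81 bases in KO and 80 in WT in 2610528E23Rik (chr16:57391709-57391789, minus strand) held 14536 reads with 115 events in KO and 11329 reads with 74 events in WT. These 2 groups had the most reads of all converted intron groups in both libraries, and few of those reads carried a conversion. In KO neither group shared a run of 15 bases with groups annotated to tRNA, rRNA or other noncoding RNA. That search covered only noncoding groups listed in these 2 libraries. Whether the reads of such groups came from the introns they are placed in, or from other RNA of like sequence, was otherwise not tested.

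Other leading groups showed the same low conversion. In Enpp1, which encodes an ectonucleotide pyrophosphatase, a group of 19 bases held 8938 reads with 23 events in KO and 4202 reads with 18 events in WT. In Fam19a1, a gene for a secreted brain protein, 5938 reads carried 25 events in KO and 2276 reads carried 4 events in WT. In Cdk8, the kinase of the Mediator complex, 5013 reads carried 69 events in KO and 3667 reads carried 30 events in WT. In Wdr92 there was 1 event in 1494 reads in KO and 11 events in 3670 reads in WT.

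Conversion was higher in other groups of the same size class, with events near the number of reads in Clcc1, Hcfc2 and Gpa33. In Arhgap32 and Grin2a events were fewer relative to reads. In Clcc1, a chloride channel-like gene, a group of 21 bases at chr3:108460374-108460394 held 1480 reads with 1472 events in KO and 2617 reads with 2576 events in WT. In Hcfc2, a relative of host cell factor 1, the group held 1717 reads with 1600 events in KO and 2678 reads with 2606 events in WT. In Gpa33, a surface antigen of intestinal epithelium, there were 933 events in 933 reads in KO and 5316 events in 5337 reads in WT. In Arhgap32, a GTPase activating protein gene, there were 1945 events in 3726 reads in KO and 836 events in 1715 reads in WT. In Grin2a, an NMDA receptor subunit gene, the largest group had 574 events in 1185 reads in KO and 2175 events in 3226 reads in WT.

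Several hosts of these leading groups had little mRNA or none listed, and for others it was not measured here. Rgs7, Fam19a1, Erc2, Agxt and Grin2a had no row in the mRNA tables, which list unexpressed genes at 0, so their mRNA level is not known. Gpa33 was listed at 0 RPKM in all 4 KO libraries and in 3 of 4 WT libraries, and at 0.0205 in WT 1. Cacna2d4, an auxiliary calcium channel subunit gene whose largest group held 2923 reads with 1 event in KO and 418 reads with 1 event in WT, was listed at 0, 0.00778, 0 and 0.00592 RPKM in KO and 0, 0.0136, 0.0179 and 0.0184 in WT. Arhgap32 measured 0.611, 0.248, 0.194 and 0.283 RPKM in KO and 0.562, 0.116, 0.335 and 0.391 in WT, all below 1 and overlapping.

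Across all hosts, the share of groups in expressed genes varied more with length than with conversion. Taking a mean of 1 RPKM over the 4 libraries of the genotype as expressed, 69.6% of converted intron groups in KO (68.0 to 71.2) and 76.4% in WT (74.9 to 77.9) lay in an expressed gene. For unconverted intron groups the share was 54.0% in KO (52.9 to 55.1) and 59.6% in WT (58.1 to 61.0). Of all 21444 genes with mRNA values, 54.4% in KO and 54.6% in WT reached that level. Converted groups of 18 or fewer bases lay in expressed genes in 52.7% of cases in KO and 52.9% in WT, and unconverted groups of that length in 50.6% in KO and 52.3% in WT. Converted groups of 21 or more bases reached 85.0% in KO (83.1 to 86.8) and 85.5% in WT (83.9 to 87.0). Unconverted groups of 21 or more bases reached 83.6% in KO (80.4 to 86.5) and 85.3% in WT (82.6 to 87.8), so at equal length the intervals of converted and unconverted groups overlapped. Converted 3′ UTR groups stood at 94.1% in KO and 94.2% in WT.

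Counted as genes, 2310 hosts in KO and 2134 in WT had a row in the mRNA tables. Of these, 1553 in KO (67.2%) and 1584 in WT (74.2%) averaged 1 RPKM or more, with a median level of 3.38 RPKM in KO and 4.41 in WT. Genes that hosted only unconverted intron groups reached 59.8% in KO and 60.2% in WT, and hosts of converted groups of 21 or more bases 82.8% in KO and 84.1% in WT. A converted 3′ UTR group was present as well in 46.6% of the hosts in KO and 57.1% in WT. The hosts overlapped in 1075 genes, which was 46.5% of the KO hosts and 50.4% of the WT hosts.

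**Figure D2:**
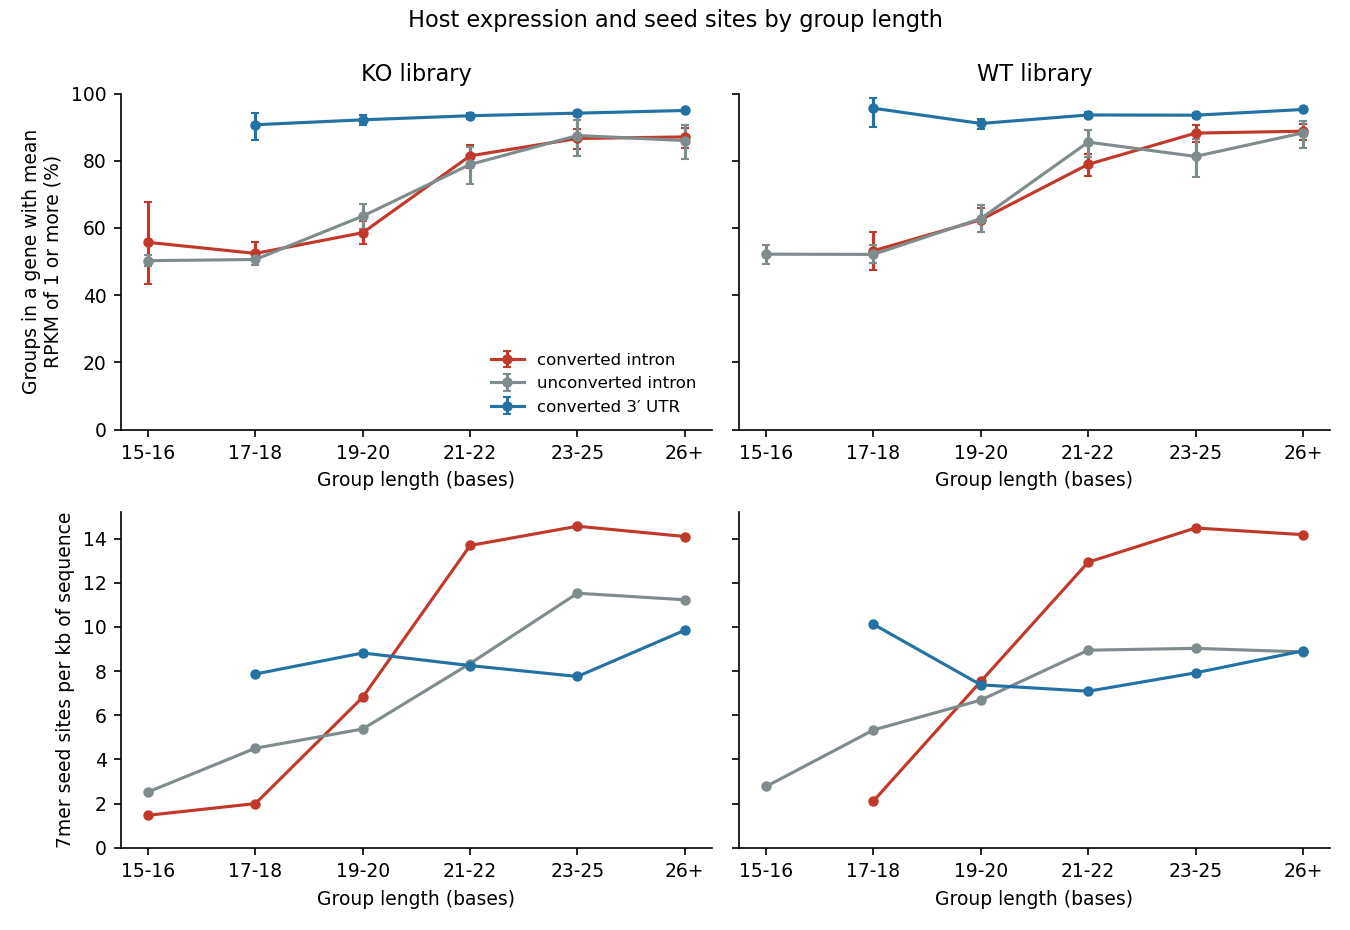
Top, share (%) of groups in a gene with mean RPKM of 1 or more, with exact 95% intervals as bars, and bottom, 7mer seed sites per kb of group sequence, both by group length in bases, in KO (left) and WT (right). Bins with fewer than 20 groups are not drawn. Both kinds of intron group run together in the top panels, between 50.3% and 55.7% at 18 or fewer bases and between 78.9% and 88.8% at 21 or more, while in the bottom panels converted intron groups of 21 or more bases lie above both other classes.

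The genes with the most converted intron groups were a different set from those with the most reads. Most hosts, 76.0% in KO and 75.3% in WT, had a single group. Gpnmb, a transmembrane glycoprotein abundant in macrophages, had 15 groups in KO and 19 in WT, spread over 26.5 kb in KO (chr6:48992029-49018536, plus strand) and 29.3 kb in WT. It had 7 groups at overlapping places, and 424 events in 441 reads in KO and 504 events in 554 reads in WT. Gpnmb mRNA measured 992, 2229, 4725 and 3958 RPKM in KO and 827, 2484, 4377 and 4134 in WT, and the genotypes overlapped.

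Zfp451, which encodes a zinc finger protein, had 11 converted intron groups in KO and 16 in WT, all of 21 or more bases, with 7 shared. It had no converted 3′ UTR group in either library. Its mRNA was low, at 1.0, 0.890, 1.34 and 1.26 RPKM in KO and 1.10, 0.803, 1.44 and 1.37 in WT. Its levels lay far below those of Gpnmb, although both had many groups.

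Ctsc, a lysosomal dipeptidyl peptidase gene, had 10 groups in each library, 5 of them shared, within 4.24 kb in KO (chr7:95435462-95439705, plus strand) and 2.60 kb in WT. Its 3′ UTR had 2 converted groups with 44 reads in KO and 1 with 27 reads in WT, fewer than the 270 reads in KO and 328 in WT of its intron groups. Cux1, a homeobox transcription factor gene, had 10 groups in KO and 18 in WT, with as many events as reads in total in both libraries. The KO groups lay within 6.77 kb and the WT groups within 277 kb. Glb1, lysosomal beta-galactosidase, had 10 groups in KO and 7 in WT, and Nupl1, a nucleoporin gene, 4 in KO and 10 in WT. Converted 3′ UTR groups of Cux1 also held fewer reads than its intron groups (98 against 234 in KO, 90 against 369 in WT). They held more in Gpnmb (3027 against 441 in KO, 4115 against 554 in WT). The same was true of Glb1 (773 against 337 in KO, 500 against 411 in WT) and Nupl1 (224 against 195 in KO, 278 against 273 in WT). Ctsc averaged 183 ± 29.6 RPKM in KO and 156 ± 35 in WT, Glb1 62.9 ± 9.06 in KO and 58.1 ± 14.7 in WT, Cux1 10.7 ± 2.21 in KO and 12.2 ± 2.99 in WT, and Nupl1 6.15 ± 1.91 in KO and 6.11 ± 2.12 in WT (SD, n = 4 each). The levels in the 2 genotypes overlapped for all 4 genes. Between same-numbered libraries Ctsc was higher and Cux1 lower in KO at all 4 numbers, with adjusted p = 0.315 for Ctsc and 0.532 for Cux1 by edgeR with the replicate block.

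**Figure D3:**
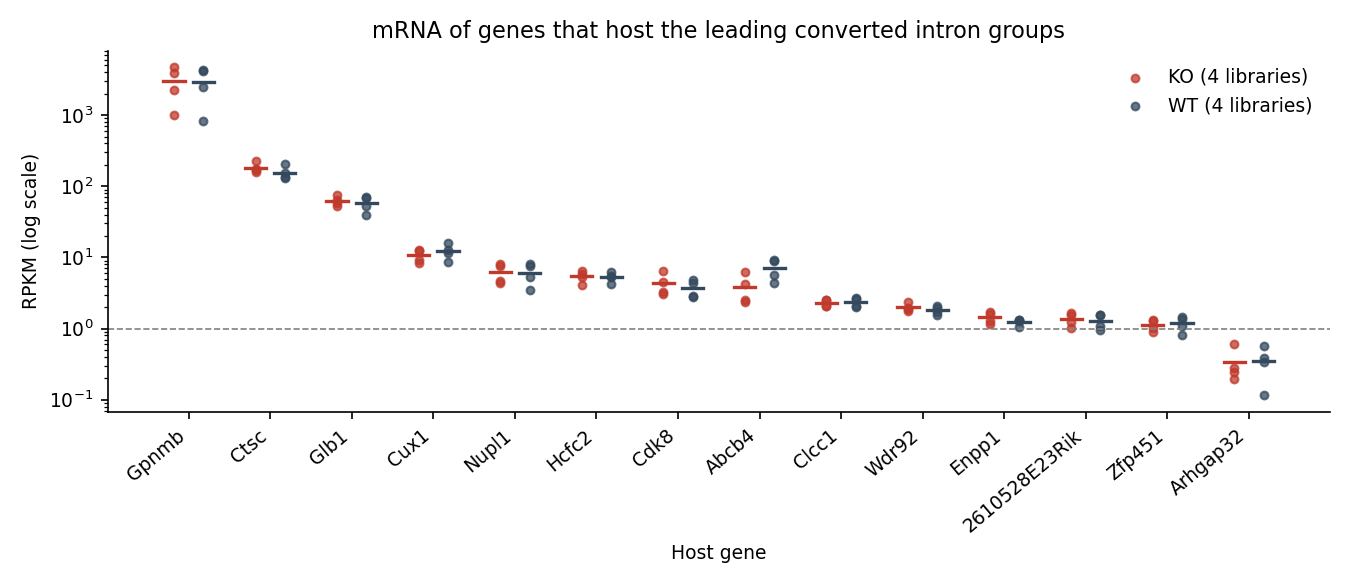
RPKM (log axis) of host genes in each mRNA library, KO left and WT right for each gene, with a bar at the mean of 4 libraries and a dashed line at 1 RPKM. Genes are among those with the most reads or the most groups, plus Abcb4, that were above 0 in all 8 libraries. Levels run from 2976 RPKM in KO and 2955 in WT for Gpnmb to 0.334 in KO and 0.351 in WT for Arhgap32.

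The base content of converted intron groups also depended on length. T made up 33.3% of their bases in KO and 35.1% in WT, against 26.9% in KO and 27.8% in WT of unconverted intron groups and 35.8% in both for converted 3′ UTR groups. A conversion needs a T, so part of this contrast is set by the rule. The share of G among bases other than T, which the rule did not use, was 32.5% in KO and 27.6% in WT for converted and 39.8% in KO and 37.0% in WT for unconverted intron groups. It was 24.1% in KO and 23.9% in WT for converted 3′ UTR groups. At matched length this contrast held only among groups of 21 or more bases, with 23.9% in KO and 22.6% in WT for converted and 31% in KO and 30.4% in WT for unconverted intron groups. Among groups of 18 or fewer bases it ran the other way, with 44.6% in KO and 43.1% in WT for converted and 41% in KO and 39.7% in WT for unconverted ones. Converted intron groups of 21 or more bases had 36.3% T and 15.2% G in KO and 36.6% T and 14.3% G in WT, near the 36% T and 15.2% G in KO and 35.9% T and 15.2% G in WT of 3′ UTR groups of that length. Converted intron groups of 18 or fewer bases had 28.5% T and 31.9% G in KO and 29.1% T and 30.5% G in WT.

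The last base differed in the same way. G was the last base of 63.8% of the converted intron groups of 21 or more bases in KO and 66.1% in WT, against 30.3% in KO and 28.6% in WT of those of 18 or fewer. The share was 78.0% in KO and 79.9% in WT for converted 3′ UTR groups of 21 or more bases.

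AU-rich motifs, the kind of sequence that ELAVL1 is known to bind, were counted on the printed strand. The motif ATTTA was present in 3.83% of converted intron groups in KO and 6.45% in WT, and in 1.07% of unconverted intron groups in KO and 2.05% in WT. Converted 3′ UTR groups held it in 6.84% of cases in KO and 7.80% in WT. A run of 5 T was found in 5.09% of converted intron groups in KO and 6.87% in WT, in 2.38% of unconverted ones in KO and 3.24% in WT, and in 10.4% of converted 3′ UTR groups in KO and 11.2% in WT. The run GGGG went the other way, at 5.98% of converted in KO and 4.77% in WT, and 11.1% of unconverted intron groups in KO and 9.36% in WT. Motifs with T are favoured by a rule that needs a conversion, and longer groups hold more motifs, so these contrasts with unconverted groups are a description. Per kb the run of 5 T stood at 4.23 in KO and 4.96 in WT for converted and 2.57 in KO and 3.61 in WT for unconverted intron groups.

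Seed matches were counted for the 20 seed families most abundant in the small RNA libraries. A match was a 7mer complementary to bases 2 to 8, or to bases 2 to 7 followed by an A, on the printed strand, and groups inside miRNA hairpins were left out. A match was present in 709 of 3570 converted intron groups in KO (19.9%, 18.6 to 21.2) and in 847 of 3325 in WT (25.5%, 24.0 to 27.0). Unconverted intron groups had one in 6.83% of cases in KO and 9.56% in WT, and converted 3′ UTR groups in 22.2% in KO and 21.3% in WT. Among groups of 21 or more bases, converted intron groups held a match more often than converted 3′ UTR groups. The share was 34.0% in KO (31.7 to 36.4) and 34.1% in WT (32.1 to 36.2) in introns, and 23.0% in KO (22.2 to 23.7) and 22% in WT (21.4 to 22.6) in 3′ UTRs. Unconverted intron groups of that length had a match in 24.4% of cases in KO (21 to 28) and 21.5% in WT (18.7 to 24.5). Every site searched holds a T and is favoured by a rule that needs a conversion, so contrasts with unconverted groups are a description.

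Counted per length of sequence, converted intron groups of 21 or more bases again stood highest. They had 14.1 sites per kb in KO and 13.9 in WT, unconverted ones 10.3 in KO and 8.94 in WT, and converted 3′ UTR groups 9.02 in KO and 8.42 in WT. Converted intron groups of 18 or fewer bases had 1.96 sites per kb in KO and 2.17 in WT, fewer than unconverted intron groups of that length, which had 3.36 in KO and 3.97 in WT. Sites extended to 8 bases (bases 2 to 8 and an A) were present in 13.3% of the converted intron groups of 21 or more bases in KO (11.6 to 15) and 12.7% in WT (11.3 to 14.2). For converted 3′ UTR groups of that length they were present in 6.50% in KO and 6.23% in WT, and for converted coding groups in 5.75% in KO and 5.08% in WT. In converted intron groups with 1 site, the median distance was 11 bases from the 5′ end of the group to the site and 6 bases from the site to the 3′ end, in both libraries.

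The miR-27 and let-7 families made up most of the difference from 3′ UTRs. A site of the miR-27 family was present in 154 of 1607 converted intron groups of 21 or more bases in KO (9.58%, 8.19 to 11.1) and 214 of 2082 in WT (10.3%, 9.01 to 11.7). In converted 3′ UTR groups of that length the share was 3.85% in KO (3.52 to 4.21) and 3.48% in WT (3.21 to 3.76), and in converted coding groups 3.6% in KO and 3.36% in WT. Of the intron groups with a miR-27 site, 79 in KO and 95 in WT held the 8-base site. The let-7 family had sites in 4.54% of the intron groups in KO (3.58 to 5.68) and 4.61% in WT (3.75 to 5.60), against 1.51% in KO and 1.47% in WT of the 3′ UTR groups. The miR-24 family had 2.68% in KO (1.94 to 3.59) and 3.03% in WT (2.33 to 3.86) in introns, against 1.46% in KO and 1.35% in WT in 3′ UTRs.

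Of the 20 families, 9 had a higher share in introns than in 3′ UTRs in both libraries, 8 a lower one in both, and 3 differed between the libraries. The intervals were apart in both libraries for 3 families that were higher in introns (miR-27, let-7 and miR-24) and 1 that was lower (miR-30). The miR-16 family had 3.86% in KO and 3.36% in WT in introns, against 2.79% in KO and 2.64% in WT in 3′ UTRs, with overlapping intervals. Sites of miR-21a, which made up 47.1% of the small RNA counts, were found in 0.809% of the converted intron groups of 21 or more bases in KO and 1.06% in WT, and in 0.713% in KO and 0.574% in WT of the 3′ UTR groups. The miR-30 family had 0.560% in KO and 0.865% in WT in introns, against 1.43% in KO and 1.56% in WT in 3′ UTRs. Without the let-7 and miR-27 families, the excess of introns over 3′ UTRs in groups with a match was 2.14 percentage points in KO and 1.84 in WT, against 11.1 in KO and 12.1 in WT with them.

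For miR-27 the intervals of converted and unconverted intron groups did not overlap in either library, and for let-7 they did. Sites with T are favoured by the rule, so this too is a description. Unconverted intron groups of 21 or more bases held a miR-27 site in 1.99% of cases in KO (1.03 to 3.45) and 3.03% in WT (1.95 to 4.48). They held a let-7 site in 4.64% of cases in KO (3.11 to 6.64) and 5.18% in WT (3.74 to 6.96). For miR-24, with sites in 4.31% of unconverted groups in KO and 2.65% in WT, the intervals overlapped as well. For miR-16 they overlapped in KO (1.99% of unconverted groups, 1.03 to 3.45) and were apart in WT (0.758%, 0.279 to 1.64). The same was true of miR-23. Among converted intron groups of 21 or more bases, 4.96% in KO and 6.51% in WT shared a run of 15 bases with another elsewhere. For converted 3′ UTR groups of that length the shares were 4.97% in KO and 6.48% in WT. Only groups of the same class and library were searched, so whether these groups lie in repeated sequence was not tested.

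**Figure D4:**
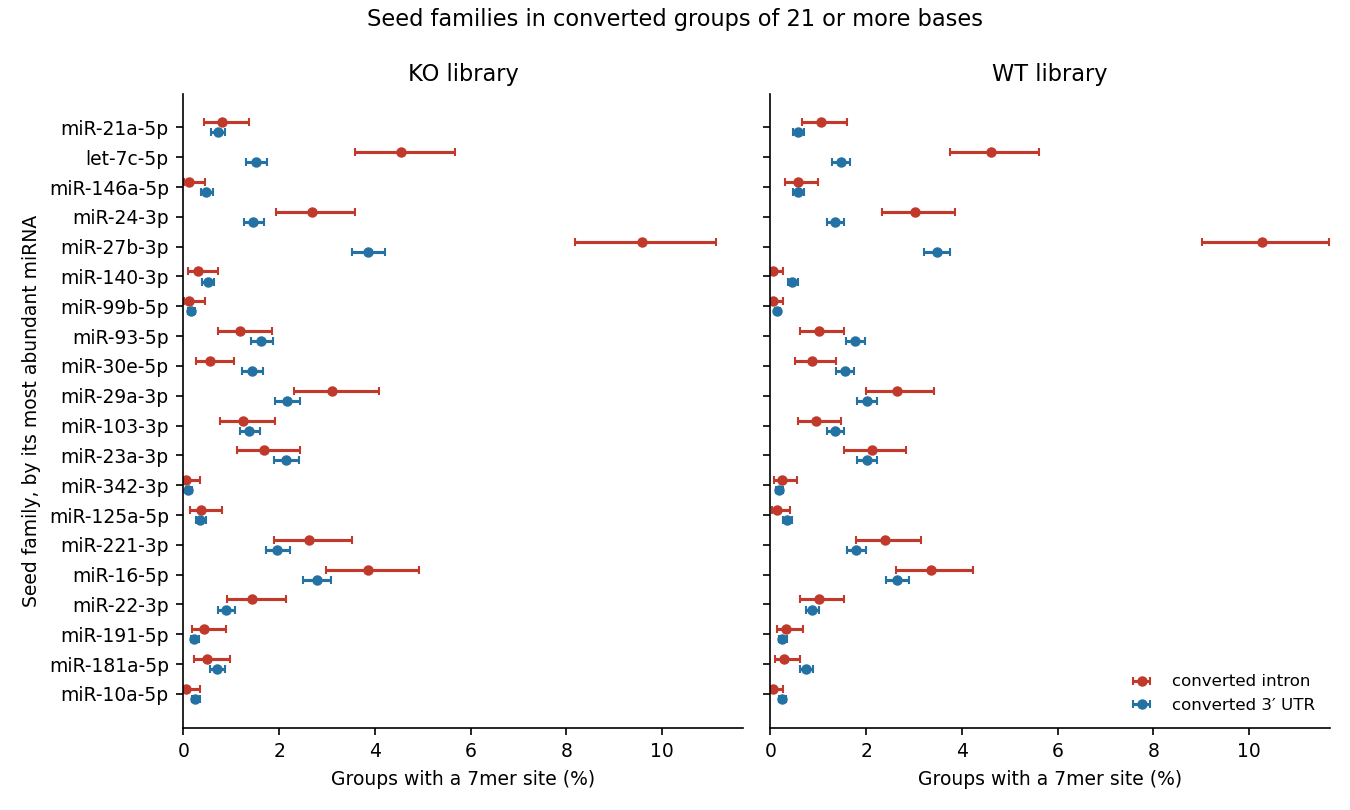
Share (%) of converted groups of 21 or more bases with a 7mer site of each of 20 seed families, with exact 95% intervals as bars, for introns and 3′ UTRs in KO (left) and WT (right), families ordered by abundance in the small RNA libraries. The miR-27 family stands highest in introns, at 9.58% in KO and 10.3% in WT, above 3.85% in KO and 3.48% in WT in 3′ UTRs, followed by let-7.

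A small number of converted intron groups lay within miRNA hairpins, 6 in KO with 646 reads and 9 in WT with 578 reads. All of their hosts averaged 1 RPKM or more. They were 0.168% of the converted intron groups in KO (0.0616 to 0.365) and 0.270% in WT (0.124 to 0.512). Of the unconverted intron groups, 0.373% lay in hairpins in KO (0.263 to 0.513) and 0.810% in WT (0.582 to 1.10), so the intervals overlapped in KO and not in WT. The hairpin with the most reads was Mir7068 in Cherp, a gene for a calcium homeostasis protein of the endoplasmic reticulum. Its 5′ arm held 378 reads with 76 events in KO and 390 reads with 37 events in WT, and the KO library also had a converted group of 147 reads with 22 events on the 3′ arm, where the WT library had an unconverted group of 133 reads. The 5′ arm group began at the first base of the hairpin and the 3′ arm group ended at its last. Both mature products are printed to show these ends, the 5′ one opening with GUGAG and the 3′ one closing with CAG, as introns do at their splice sites.
miR-7068-5p: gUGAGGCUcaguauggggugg
miR-7068-3p: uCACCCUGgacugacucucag

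Other hairpins had fewer reads. Mir7074 in Slc12a4, a potassium chloride cotransporter gene, held 34 reads with 12 events in KO and 12 reads with 5 events in WT. Mir7059 in Cln3, a lysosomal membrane protein gene, had 44 reads with 9 events in KO, and in WT its group of 22 reads was unconverted. Mir6418 in Epo had 35 reads with 17 events in KO and an unconverted group of 42 reads in WT. Mir8103 in Osbpl7 had 58 reads with 10 events in WT alone. Events per read in hairpin groups ran from 0.150 to 1 in KO and from 0.0345 to 1 in WT.

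KO and WT shared 780 converted intron groups by an overlap of at least 1 base on the same strand. This was 21.8% of the KO groups (20.5 to 23.2) and 23.4% of the WT groups (22 to 24.9). The shared groups held 74.7% of the reads in KO and 73.2% in WT. Converted 3′ UTR groups were shared in 53.9% of cases in KO and 39.6% in WT, and unconverted intron groups in 21% in KO and 41.3% in WT. Sharing followed reads: groups of 5 to 9 reads were shared in 8.31% of cases in KO and 14.8% in WT, and groups of 50 or more reads in 80.5% in KO and 84.6% in WT. A partner of any class raised the share to 25.1% in KO and 26.8% in WT, so few groups met an unconverted group in the other library.

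Unscaled reads in shared groups were higher in KO for short groups and close to level for long ones. Over all 780 pairs the median log2 ratio of KO to WT reads was 0.62, with 524 pairs higher in KO and 244 higher in WT. In the 129 pairs with both groups of 18 or fewer bases it was 1.22 (0.80 to 1.68, a 95% interval over pairs from order statistics), with a median of 36 reads in KO and 14 in WT. In the 370 pairs with both groups of 21 or more bases it was 0.13 (0 to 0.28), with a median of 31 reads in KO and 30 in WT. Listed reads in all groups summed to 6445262 in KO and 6287870 in WT, so the totals differed little. Reads in converted 3′ UTR groups summed to 1449651 in KO and 1719975 in WT. Per such read the median log2 ratio over all 780 pairs was 0.86. This scaling shifts every pair by the same amount, so the median of pairs of 21 or more bases also lay above its unscaled 0.13. Whether long groups stood level therefore depends on the scaling. Across pairs, Spearman's rank correlation between KO and WT reads was 0.567, a description over groups of 1 library each. The intervals over pairs likewise cover spread among groups and not between libraries, so genotype and library cannot be told apart here.

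**Figure D5:**
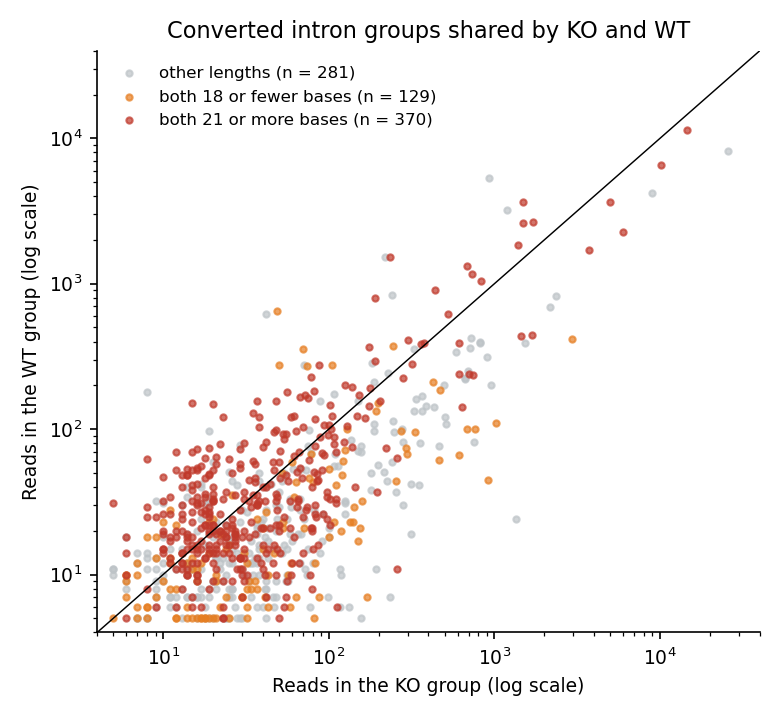
Unscaled reads in each of the 780 shared converted intron groups, KO on the horizontal and WT on the vertical log axis, coloured by length, with the line of equal reads. Pairs of 18 or fewer bases (n = 129) lie mostly on the KO side of the line, with a median log2 ratio of 1.22, and pairs of 21 or more bases (n = 370) lie about it, with a median of 0.13.

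The mRNA of the hosts was compared between genotypes on the deposited counts. In these bulk cultures, fewer cells of a type and less RNA per cell cannot be told apart. Of the 3369 hosts in either library 2845 were tested. None had an adjusted p under 0.05 by edgeR's quasi-likelihood test with genotype alone, as for all 14019 genes tested (0% called), and 15 hosts had an unadjusted p under 0.05, as did 81 of all genes tested. The median log2 fold change was -0.03 over the hosts and -0.002 over all genes tested. DESeq2 called 1 host, Tep1, a telomerase-associated protein gene (log2 fold change -0.61, SE 0.13, adjusted p = 0.0166 by DESeq2), where 0.0214% of all genes were called.

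With the replicate number as a block, edgeR called 1 host, Abcb4, a phospholipid transporter gene, where 0.0357% of all genes were called. In that fit 262 hosts and 1321 of all genes tested had an unadjusted p under 0.05. The fit with genotype alone counts spread shared by same-numbered libraries as error, so its lack of calls does not show equal levels. Abcb4 measured 2.35, 2.55, 4.24 and 6.16 RPKM in KO and 4.37, 5.66, 8.82 and 9.11 in WT. The KO library was lower at each number, although the groups overlapped, and the log2 fold change was -0.91 (SE 0.11, adjusted p = 0.0204 by edgeR with the block) and -0.87 without it. Abcb4 hosted 1 converted group of 17 bases in KO, with 6 reads and 6 events, and an unconverted group of 8 reads in WT. DESeq2 with the block called 21 hosts, 7 higher and 14 lower in KO, which was 0.738% of those tested, beside 0.585% of all genes.

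Genes of related function appeared among the hosts in small numbers. Of all 21444 genes with mRNA values, 10.8% hosted a converted intron group in KO and 9.95% in WT. Of 15 genes of the silencing machinery, 4 hosted a converted intron group in KO (Tnrc6a, Tnrc6b, Tnrc6c and Drosha) and 4 in WT (Ago1, Tnrc6c, Dicer1 and Cnot1). The Tnrc6 genes encode GW182 scaffold proteins that bind AGO2. Tnrc6c was the one found in both libraries, with 20 reads in KO and 17 in WT and as many events as reads in both. Of 25 genes for RNA-binding proteins that act on introns and splicing, 9 were hosts in KO and 6 in WT. Hnrnpu had 6 groups with 106 reads in KO and 3 with 60 reads in WT, and Mbnl1 had 1 group with 8 reads in KO and 5 with 61 reads in WT.

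Of 20 miRNA host genes with a row in the mRNA tables, 6 carried a converted intron group in KO and 7 in WT. Ppfibp1 stood out by reads, with 1697 reads and 1631 events in KO and 443 reads and 429 events in WT in 1 group. Ctdspl was the other gene found in both, with 16 reads in KO and 11 in WT. No converted group in these miRNA host genes lay within a miRNA hairpin. Of 11 macrophage markers, Cd68, Itgam and Ctss were hosts in KO and Adgre1 and Fcgr1 in WT. Adgre1, the F4/80 antigen, had 4 groups with 48 reads in WT. Among markers of other cell types, Rbfox3 had 1 group of 8 reads in KO and Dcn 1 group of 12 reads in WT. None of the hosts in these lists was called by edgeR with or without the block.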

How the data were processed

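The authors deposited read counts and RPKM per gene for 8 mRNA libraries, miRNA read counts for 4 small RNA libraries, and tables of PAR-CLIP groups with counts of reads and conversion events, per the file headers. In the small RNA table of KO 4 the count column is headed KO 4 and the column of fractions, not used here, KO 2. Total counts were 8160789 to 25030262 per mRNA library and 6886110 to 10265453 per small RNA library. The submitters' processing notes list CASAVA 1.8.2, Bowtie 0.12.7 and mm9. For the gene counter, its use of strand, multiply mapping reads, the group caller, its intron annotation and the nuclease, the setting is not given in the sources used here, and reads from repeated sequence or from overlapping genes could be placed in introns. Every listed group held at least 5 reads, and reads carried no molecular identifiers. Coordinates are as in the tables, and whether they count from 0 or 1 was not settled.

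Gene names of groups were matched to Ensembl identifiers by symbol or RefSeq synonym. In KO 2310 genes and in WT 2134 genes had an mRNA row, and 208 names in KO and 145 in WT were unmatched. Groups annotated to mmu-mir-692-2 (71 in KO, 57 in WT), spread over 48.0 Mb of chromosome 4 in KO and 48.8 Mb in WT, were kept as members but given no host. Overlaps were found with bedtools 2.31.1. Shares have exact Clopper-Pearson 95% intervals, and intervals of ratios take group numbers as Poisson counts. The 20 seed families searched held 90.2% of the small RNA counts.

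Host mRNA was tested on deposited counts with edgeR 4.0.16 in R 4.3.3 (quasi-likelihood, TMM, filterByExpr, genotype alone, Benjamini-Hochberg adjustment over all genes tested), with DESeq2 1.42.0 and a replicate block as alternatives, after a check on simulated counts. Same-numbered KO and WT libraries deviated together (correlations 0.832, 0.859, 0.774 and 0.832), all above 0.1, so the block is given beside the results it changes. Numbers 3 and 4 also correlated across genotypes (0.808 and 0.862), and numbers 1 and 2 less (0.242 and 0.359). The labels do not say that libraries came from separate mice, and p-values then reflect only library-to-library spread, which may be technical.

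Named genes are the 10 with the most reads and the 5 with the most groups per library, hairpins, the 10 largest shared pairs, hosts called by edgeR with or without the block, and list members. Tep1, Lsp1 and the printed sites were picked from their values. A few items that this rule names are not reported here. The members, lists and tests were chosen with earlier results of these data known.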

Additional observations from a re-analysis of the deposited data

Results flagged for a closer look

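Among 35 sets of 4 RPKM values from the named host genes and Elavl1, 1 sample stood apart from the other 3 of its group. Gpa33 was listed at 0.0205 RPKM in WT 1 and at 0 in WT 2, WT 3 and WT 4. The gap between WT 1 and the others was the whole range, as it must be when a single library is above 0. It was listed at 0 in all KO libraries. Its converted intron group held 933 reads in KO and 5337 in WT. Chance alone sets apart about 1 in 20 groups of normally distributed values, a rate that does not cover a group with 3 values at 0.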

How the results depend on the processing

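The PAR-CLIP comparisons rest on 1 library per genotype, and depth limits small groups most. Alternatives on groups of 21 or more bases, genes without a row, mmu-mir-692-2, noncoding runs, the ratio of numbers, the excess over 3′ UTRs and reads in shared groups were chosen after seeing the data. Restricted to 21 or more bases, the number of converted intron groups was 1612 in KO and 2089 in WT (KO over WT 0.772, the opposite direction to 1.07), T was 36.3% in KO and 36.6% in WT, the shared part 24.6% in KO and 19.7% in WT, expressed hosts 82.8% in KO and 84.1% in WT, and groups with a 7mer 34.0% in KO and 34.1% in WT. With at least 10 reads, T was 33.7% in KO and 35.5% in WT, the shared part 24.5% in KO and 27.0% in WT, and the ratio of numbers 1.26. Taking any intron group as partner gave 25.1% in KO and 26.7% in WT, and any group 25.1% in KO and 26.8% in WT. Expressed hosts were 72.5% in KO and 79.0% in WT at 0.5 RPKM, 76.5% in KO and 83.1% in WT at 10 reads in each library, and 61.7% in KO and 69.4% in WT with genes lacking a row counted as under 1. Leaving out each mRNA library gave 66.7% to 67.8% in KO and 73.5% to 74.5% in WT. Seed shares were 27.9% in KO and 33.6% in WT with 6mers, 7.03% in KO and 9.05% in WT with 8mers, and 13% in KO and 17.5% in WT with 10 families. The excess over 3′ UTRs was 6.76 points in KO and 6.45 in WT with 8mers, 13.7 in KO for groups of 21 to 25 bases, and 2.14 in KO and 1.84 in WT without let-7 and miR-27, and positive in all 6 alternatives in both libraries. The median log2 ratio of reads in shared groups was 0.86 per read in converted 3′ UTR groups. Unscaled, it was 0.13 for pairs of 21 or more bases and 1.22 for pairs of 18 or fewer. Hosts with changed mRNA, 0 by edgeR with genotype alone, numbered 1 with the replicate block in edgeR (Abcb4), 1 in DESeq2 (Tep1), 21 with the replicate block in DESeq2 and 1 with numbers 3 and 4 alone (Lsp1). They were 0 without the filter, with numbers 1 and 2 alone and without each mRNA library in turn. With numbers 3 and 4 alone 2884 hosts were tested, and the share of all genes called in that fit is not given here. The cause of these changes was not tested. Leaving out hairpin groups, groups with 1 event, mmu-mir-692-2 groups or groups sharing a run with noncoding RNA moved no number, median or T share beyond its margin.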
